A study of Mus musculus with 7 samples.

Results

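Voltage-gated and related cation channels were read in mouse brain and mouse kidney, as sense transcripts and, for a few genes, as antisense transcripts. The members are all probe sets with exactly 1 gene symbol in the platform annotation that begins with Kcn, Cacn, Scn and a digit, or Hcn and a digit, leaving out Kcnj1, Kcnj13 and the noncoding Kcnq1ot1. This gave 245 of 45037 sense probe sets, for 118 of 18193 genes, and 9 of 5652 reverse probe sets, for 9 of 2915 genes. Of the 118 genes, 116 code for channel subunits and 2, Kcnmb4os1 and Kcnmb4os2, are noncoding RNAs annotated as opposite strand to Kcnmb4.

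The study hybridised total RNA of dissected mouse brain (8 micrograms) and of dissected mouse kidneys (6.75 micrograms) to 7 Affymetrix arrays. Sense signals of brain came from a 430A and a 430B array and those of kidney from a 430 2.0 array, which carries the probe sets of both. Antisense signals of each tissue came from a U74A and a U74B array, of which the authors kept the reverse probe sets, as Affymetrix's mask gives them. Strain, age, sex and the number of animals behind each RNA are not given in the sources used here, and no treatment or genetic change is named. Every tissue and design had 1 array, so no value has a replicate error and no difference was tested. On the sense side, array type and tissue cannot be told apart. Values for single probe sets are MAS5 signals as deposited, without a unit, and are compared between tissues only for the same probe set.

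As background, most of these genes code for ion pores or for subunits that join or modify them. The pores open with a change in membrane voltage, with calcium or other ligands, or pass a leak at rest. Sodium channels (Scn) start the action potential, calcium channels (Cacn) turn it into calcium entry and transmitter release, and potassium channels (Kcn) end it and set the resting potential. Hcn channels carry a pacemaker current. In kidney, several potassium channels recycle potassium across tubule membranes and hold the voltage that drives salt transport, while neurons use most families of the list. In whole tissue, fewer cells of a type and less RNA per cell cannot be told apart.

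The sense comparison asked which channel genes were higher in brain and which in kidney. Without any scaling or filter, 186 of the 245 sense probe sets stood at a higher percentile of their array in brain than in kidney, against 50.8% of all 45037 probe sets. Channel probe sets had a median percentile of 57.2 in brain and 25.8 in kidney. On 430A 107 of 137 were higher in brain and on 430B 79 of 108. By group, brain was higher on 31 of 34 probe sets of the pore-forming subunits of Kcna, Kcnc and Kcnd (medians 72.2 and 30.9), 18 of 19 of Cacna1, 8 of 9 of Cacnb (medians 73.0 and 17.9) and 6 of 6 of the Scn beta subunits. For the inward rectifiers it was 15 of 28, and for Cacna2d 6 of 12, close to the share of all probe sets.

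**Figure D1:**
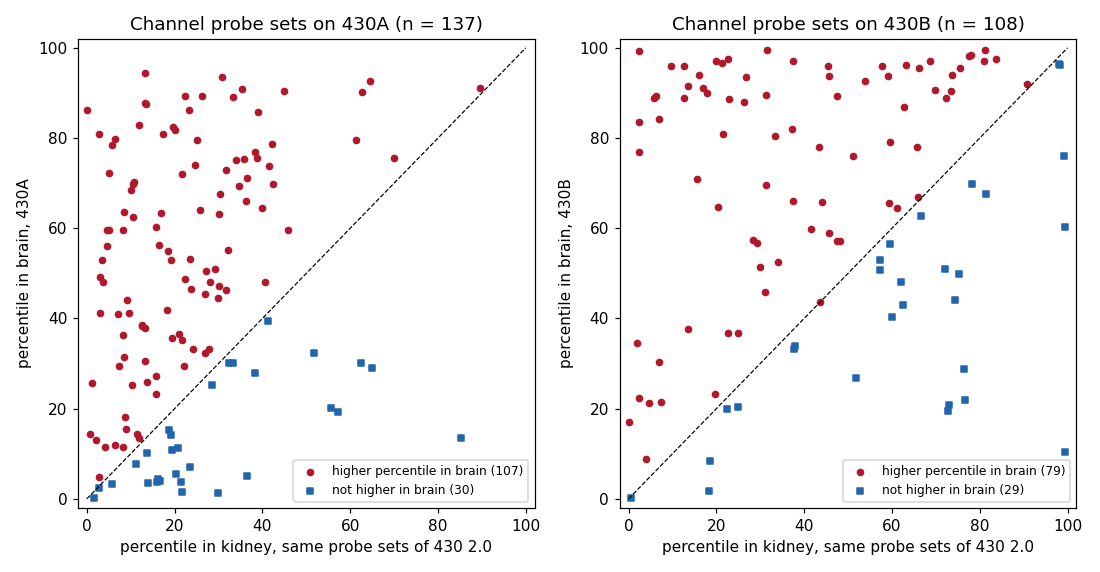
Percentile of each of the 245 channel probe sets within its brain array (vertical axis) and among the matching kidney probe sets (horizontal axis), for 430A (left) and 430B (right), with the line of equal percentiles dashed. Most points lie above the line, 107 of 137 on 430A and 79 of 108 on 430B.

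For fold changes, each brain array was centred against kidney, and signals under a floor, the higher median of the pair, were raised to it (186.4 for 430A and 28.6 for 430B in kidney units). A gene is represented by the probe set whose percentile, averaged over the tissues, is highest. It counts as higher in the tissue that exceeds the other at least 2-fold. A fold is a lower bound, written "at least", where the lower tissue was under the floor. In brain, in kidney or in both, 86 of the 118 genes passed the floor, against 71.3% of all genes. Of the 86, brain was higher for 53, kidney for 7 and neither for 26. Among all genes that passed, the shares were 17.8% for brain and 27% for kidney. For 38 of the 53 brain genes the fold is a lower bound, and it ran from 2.04 to 22.8 over the 53 with a median of 4.08. The median log2 ratio of brain over kidney was 1.42 for the 86 channel genes and -0.11 for all genes above the floor. Since a gene can pass the floor through the tissue where it is high, these counts describe the genes that passed, and 32 members did not.

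The scale of 430B decided most of the kidney calls. Centring 430B by itself lowered its brain signals 4.24-fold, while tying it to 430A by the 100 probe sets that both brain arrays carry gave brain signals 3.03-fold higher than that. None of those 100 is a channel probe set. On this second scale, called the scale of 430A here, the count was 54 for brain and 2 for kidney, against 27.2% and 15.8% of all genes, and the median of all genes moved from -0.11 to 0.31. All 53 brain calls were also made on that scale and with quantile normalization, and 51 of them with signals as deposited. Of the 7 kidney calls, only those of Kcnj15 and Kcnj16 were made under all 3 of these scalings, and 5 with quantile normalization, where 23.5% of all genes were kidney calls. Split by array, genes represented on 430A gave 19 brain calls and no kidney call among 32 (18.6% and 21.3% of all such genes). Those on 430B gave 34 and 7 among 54 (16.9% and 33.7%), or 35 and 2 among 51 on the scale of 430A (38.2% and 8.74%). Kcnd3, Kcnj11, Kcnj5, Kcne1 and Kcnma1 were not kidney calls on the scale of 430A or with signals as deposited, and those of Kcnd3 and Kcnj11 were also absent with quantile normalization.

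The tissue labels were checked with marker genes, read in the same way. All 7 neuronal markers were higher in brain (signals summing to 22327 in brain and 140.4 in kidney) and 5 of 6 markers of the loop, distal tubule and collecting duct in kidney (1982 and 25920), with 4 of 5 proximal tubule markers. The remaining proximal tubule marker, Lrp2, was a brain call (311.7 against 28.1). All 3 pituitary markers were higher in brain (12690 and 88.1), and 2 of 5 muscle markers in kidney (803.8 and 5714), while the muscle marker Ckm was a brain call (435.7 against 38.9). These sums add deposited signals over both brain arrays, which differ in scale. With the brain arrays centred, the brain sums were 20973 for neurons and 3552 for loop, distal tubule and collecting duct. They were 22738 for pituitary and 762 for muscle. No marker was at 0 in either tissue. Of the markers of astrocytes 3 of 5 and of oligodendrocytes 3 of 3 were higher in brain, while the astrocyte marker Aldh1l1 was a kidney call (300 against 1248.8). The choroid plexus markers gave 0 brain calls after centring and 2, Ttr and Clic6, on the scale of 430A. Kidney was higher for 1 of 3 endothelial markers and 1 of 2 podocyte markers measured. How far each cell type contributed to a channel reading was not tested.

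**Figure D2:**
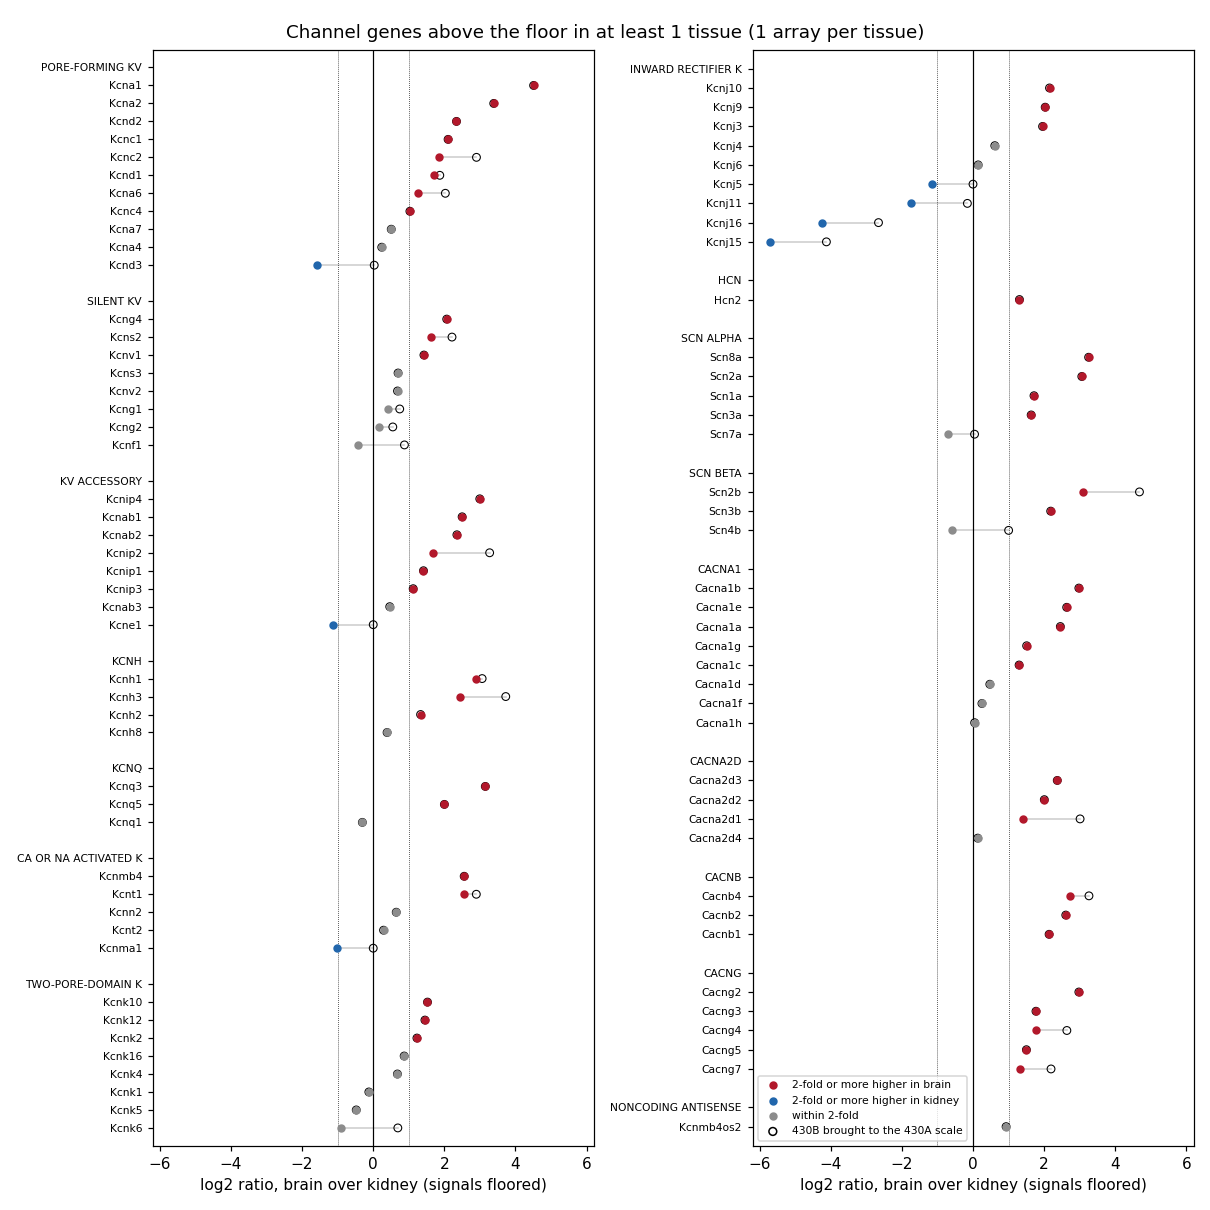
Log2 ratio of brain over kidney for the 86 channel genes above the floor, by group, with signals under the floor raised to it. Filled points use each array centred by itself, coloured where they pass 2-fold (dotted lines), and open circles use 430B brought to the 430A scale. All 53 brain genes stay right of the dotted line, while of the 7 kidney genes only Kcnj15 and Kcnj16 stay left of it.

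To show the sequence context of the largest differences, the stretch before the transcription start is given for the pair of genes with the largest fold towards each tissue after centring, lower bounds included, among those in the RefSeq promoter table (build GRCm38.p6). On the scale of 430A the order changed, with Scn2b (25.6-fold) and Kcnh3 (13.2-fold) above Kcna2 (at least 10.5-fold) and Scn8a (at least 9.52-fold). Of the 118 genes, 89 were in that table. The 250 bases before the most upstream start are given 5′ to 3′ on the plus strand, with every CG dinucleotide in capitals, for chr16:95257308-95257557 (Kcnj15), chr11:110967783-110968032 (Kcnj16, the most upstream of 4 starts), chr3:107101317-107101566 (Kcna2) and chr15:100870395-100870644 (Scn8a, the more upstream of 2 starts).
Kcnj15: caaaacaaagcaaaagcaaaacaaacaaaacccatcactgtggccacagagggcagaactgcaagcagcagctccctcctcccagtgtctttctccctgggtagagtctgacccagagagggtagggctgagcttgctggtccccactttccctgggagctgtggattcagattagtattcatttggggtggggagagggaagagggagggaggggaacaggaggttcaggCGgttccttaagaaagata
Kcnj16: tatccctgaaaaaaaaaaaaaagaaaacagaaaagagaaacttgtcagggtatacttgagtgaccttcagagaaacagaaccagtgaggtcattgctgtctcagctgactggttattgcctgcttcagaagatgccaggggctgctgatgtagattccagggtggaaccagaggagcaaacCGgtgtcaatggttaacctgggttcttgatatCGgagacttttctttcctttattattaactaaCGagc
Kcna2: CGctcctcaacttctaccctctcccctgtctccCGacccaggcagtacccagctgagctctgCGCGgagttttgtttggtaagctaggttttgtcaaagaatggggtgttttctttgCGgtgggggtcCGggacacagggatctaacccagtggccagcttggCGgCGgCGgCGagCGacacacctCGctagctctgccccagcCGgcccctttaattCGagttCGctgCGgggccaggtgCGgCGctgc
Scn8a: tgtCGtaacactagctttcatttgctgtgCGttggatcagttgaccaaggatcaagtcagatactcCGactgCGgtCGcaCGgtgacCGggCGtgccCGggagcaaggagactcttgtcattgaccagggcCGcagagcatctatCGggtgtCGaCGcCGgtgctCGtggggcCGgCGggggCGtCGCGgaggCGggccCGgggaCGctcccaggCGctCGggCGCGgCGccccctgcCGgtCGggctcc

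The kidney pair held 1 (Kcnj15) and 3 (Kcnj16) CG dinucleotides and the brain pair 18 (Kcna2) and 30 (Scn8a). The ratio of observed to expected CG was 0.058, 0.27, 0.74 and 1.05 in that order. Its median was 0.38 over the 27025 genes of the table, 0.52 over the 41 brain-called channel genes in it and 0.42 over the other 48. The GC box GGGCGG, read on both strands, was in 50.6% of the 89 channel promoters and 33.0% of all. CCAAT was in 27% and 34.5%, and the TATA box TATAAA in 2.25% and 13.0%. CCAAT was in 39.0% of the 41 brain-called channel promoters and 16.7% of the other 48, and GGGCGG in 56.1% and 45.8%. None of the 4 stretches shown holds any of these 3 motifs. These are descriptions of letters in a window and were not tested.

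The pore-forming subunits of voltage-gated potassium channels stood mostly with brain. Of 13 genes of Kcna, Kcnc and Kcnd, 11 were above the floor, 8 higher in brain and 1, Kcnd3, in kidney. Kcna1, a Shaker-type subunit of axons that brings the membrane back to rest, had a brain signal of 2768.3 and a kidney signal of 9.8, at least 22.8-fold higher in brain. Its other 3 probe sets read 431.8 against 21.3, 954.2 against 2.7 and 151.5 against 18.5, all brighter in brain. That at 151.5 was within 2-fold with the floor (log2 ratio 0.32). Kcna2, which joins Kcna1 in axonal channels, read 1272.5 against 5.6 (at least 10.5-fold), and its other 3 probe sets 307 against 24.1, 388 against 1.6 and 164.4 against 14.9. Kcna6 read 495.4 in brain and 48.8 in kidney, 2.39-fold higher in brain after centring and 4.08-fold on the scale of 430A. Kcna4 and Kcna7 were within 2-fold of the floor (122.8 against 14.3 and 147.8 against 11.3). The lymphocyte channel gene Kcna3 (48.5 and 3.6) and Kcna5, a channel gene of heart and vascular muscle (44.9 and 58.8), were under the floor in both tissues.

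The Kcnc genes code for fast channels that let neurons fire at high rates, and all 3 were higher in brain. Kcnc1 read 522.8 against 9.7 (at least 4.30-fold), with other probe sets at 1154.7 against 4.6, 192.2 against 34.2 and 151.2 against 19.1. Those at 192.2 and 151.2 were within 2-fold with the floor (log2 ratios 0.89 and 0.32). Kcnc2 read 908.7 against 59.1 (3.62-fold after centring and 7.48-fold on the scale of 430A, above the floor in both tissues). Kcnc4 lay just inside the 2-fold rule at 212.6 against 5.9 (at least 2.04-fold) and was under it with signals as deposited, at 0.81 on the log2 scale.

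The Kcnd genes code for the A-type channels of dendrites and heart. Kcnd2 read 717.9 in brain and 253.9 in kidney (5.07-fold higher in brain), with 2 further probe sets above the floor at 307.6 against 218.7 and 208.5 against 76.7. Kcnd1 read 444.6 against 32 (3.28-fold). Kcnd3 was bright in both tissues, at 1044.5 in brain and 730.6 in kidney. After centring 430B by itself it was 2.97-fold higher in kidney, while the log2 ratio was 0.03 on the scale of 430A and 0.52 as deposited. A second Kcnd3 probe set read 198.8 in brain against 12.7 in kidney, towards brain at 0.71, so the probe sets of Kcnd3 pointed opposite ways. Its direction is not settled by these arrays.

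Genes of Kcnf, Kcng, Kcns and Kcnv code for subunits that form no channel alone and modify those of Kcnb. Of 9, 8 were above the floor, 3 higher in brain and 5 in neither. The 3 were Kcng4 (509 against 18.5, at least 4.19-fold), Kcns2 (564 against 43.2, 3.08-fold after centring and 4.64-fold on the scale of 430A) and Kcnv1 (326.5 against 10.7, at least 2.69-fold). Kcnv1 had further probe sets at 510.5 against 1.5 and 131.2 against 11. Kcnf1 gave opposite readings, with 1 probe set at 223.2 against 70.4 (log2 ratio -0.42 after centring and 0.88 on the scale of 430A) and the other at 188.5 against 4.7 (0.63). Kcns3 did so too, at 197.2 against 16.4 (0.70) and 29 against 50.2 (-0.81, and under the floor in both tissues on the scale of 430A). Kcng1, Kcng2 and Kcnv2 stayed within 2-fold, with brain signals of 203.6, 177.9 and 195.1. Kcns1 was under the floor, at 3.8 and 11.5.

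The accessory subunits separated by family. All 4 Kcnip genes, calcium-binding partners of the Kcnd channels, were higher in brain. Kcnip4 read 969.5 in brain against 2.1 in kidney (at least 7.98-fold), with its other probe sets at 361.2 against 6.9 and 229.5 against 2.4. Kcnip2 read 1184.7 against 87.4 (3.20-fold after centring and 9.67-fold on the scale of 430A). Kcnip1 read 276.9 against 59 (at least 2.66-fold), and Kcnip3, which is also known as a transcriptional repressor, 226.6 against 18.9 (at least 2.18-fold, but 0.90 on the log2 scale as deposited). Of the 3 Kcnab genes, cytoplasmic beta subunits that can speed inactivation, Kcnab1 read 588.3 against 90.2 (at least 5.66-fold) and Kcnab2 531.3 against 20.1 (at least 5.11-fold). Kcnab3 stayed within 2-fold at 143.5 against 2.3.

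Kcne genes, which code for small subunits with 1 membrane span, leaned the other way. The percentile was higher in kidney for 4 of the 5, but 4 of the 5 were also under the floor in both tissues. Kcne4 read 27.2 in brain and 164.7 in kidney, and Kcne3 2 and 33.1. Kcne1, the partner of Kcnq1 in heart and kidney, read 51.8 and 62.3 on 430B, at least 2.18-fold higher in kidney after centring and under the floor on the scale of 430A. Its probe set on 430A read 5.1 and 51.7, under the floor there. Kcne1l read 55.2 and 134.3, and Kcne2, the only one with the higher percentile in brain, 68.9 and 8.3, both under the floor.

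Of the 6 Kcnh genes, 3 were higher in brain, 1 was in neither and 2 were under the floor. Kcnh1, an ether-a-go-go channel gene, read 1014.8 in brain and 32.5 in kidney (7.36-fold), and its probe set on 430A 169 against 25.1. Kcnh3, a gene of the same family expressed in forebrain, read 1607.8 against 70.3 (5.39-fold after centring and 13.2-fold on the scale of 430A). Another Kcnh3 probe set gave 1534 against 66.9, but the one on 430A gave 97.7 against 67.6 and was under the floor. Kcnh8 read 159.2 against 17.3, within 2-fold with the floor, and Kcnh5 and Kcnh7 were under it. Kcnh2, which codes for the channel of the rapid delayed rectifier current in heart, read 261.8 against 60.6 (at least 2.52-fold).

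Of the 3 Kcnq genes, Kcnq3 and Kcnq5 were higher in brain and Kcnq1 in neither tissue. Kcnq3, a subunit of the M-current channel that damps repeated firing, read 1079.9 in brain against 5.1 in kidney, at least 8.89-fold higher in brain. Its other probe set was weaker, at 152.2 against 8.3, or 0.33 on the log2 scale. Kcnq5, another M-current subunit, read 486.3 against 5.7 (at least 4-fold). Kcnq1, the channel gene of heart and epithelia, read 49.9 in brain and 230.3 in kidney and was above the floor in kidney only. Its log2 ratio was -0.31 with the floor, -0.93 as deposited and -0.79 with quantile normalization, under 2-fold in each.

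Channels opened by calcium or sodium gave 2 brain genes and 1 kidney gene among 11, of which 5 were above the floor. Kcnmb4, the beta subunit of neuronal BK channels, read 612.4 in brain against 47.9 in kidney (at least 5.89-fold). Kcnt1, a channel gene gated by sodium, read 906 against 36.7 (5.82-fold), with 2 more probe sets at 729.2 against 28 and 580.2 against 3.7. Kcnma1, the pore of BK channels, gave opposite readings. Its probe set on 430A read 469.4 in brain against 8.6 in kidney, at least 4.51-fold higher in brain. The 430B probe set that represented it read 121.2 and 58.1, at least 2.03-fold higher in kidney after centring and under the floor on the scale of 430A. The remaining 3 Kcnma1 probe sets read 126.5 against 9, 48.6 against 19.5 and 24.3 against 0.1, brighter in brain in each. Kcnn2, an SK channel gene, read 162.9 against 33.4, within 2-fold with the floor, as was Kcnt2 (148.6 against 28.5). The other 3 Kcnn genes, Kcnmb1, Kcnmb2 and Kcnu1 were under the floor.

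The tandem pore domain family, Kcnk, makes the leak channels of the resting membrane. Of 12 genes 8 were above the floor, with 3 higher in brain, none in kidney and 5 in neither. The brain genes were Kcnk10 (349.8 against 12.6, at least 2.88-fold), Kcnk12 (332.9 against 5.2, at least 2.74-fold) and the mechanically gated Kcnk2 (243.8 against 72.1, at least 2.34-fold). Kcnk1 was bright in both tissues, at 616.7 in brain and 1202.9 in kidney, a log2 ratio of -0.12 after centring and -0.96 as deposited. Its second probe set read 261.3 and 334.8 (0.48 after centring). Kcnk5, an acid-sensing channel gene of the tubule, read 47.5 in brain and 259.4 in kidney, and was 2-fold higher in kidney only with signals as deposited (log2 ratio -1.10, against -0.48 after centring). Kcnk4 (166.6 against 4.3) and Kcnk16 (222.1 against 9.7) were within 2-fold with the floor, and Kcnk3, Kcnk7, Kcnk13 and Kcnk15 were under it. Kcnk6 read 208.1 and 91.9 and turned from -0.91 after centring to 0.69 on the scale of 430A.

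The inward rectifiers, Kcnj, were the only group with kidney calls under every scaling tried. Of 13 genes 9 were above the floor, 3 higher in brain and 4 in kidney after centring, or 3 and 2 on the scale of 430A. Kcnj15, a channel gene of renal epithelium, read 14.1 in brain against 1509.2 in kidney. It was at least 52.7-fold higher in kidney after centring and at least 17.4-fold on the scale of 430A. Its probe set on 430A gave 15 in brain and 824.5 in kidney, while the remaining probe set gave 95.1 and 31.9, a log2 ratio of -0.16 after centring and under the floor on the scale of 430A. Kcnj16, whose product joins that of Kcnj10 in the basolateral membrane of the distal tubule, gave 274.8 in brain against 1236.8 in kidney, 19.1-fold higher in kidney after centring and 6.31-fold on the scale of 430A. The other Kcnj16 probe set read 166.5 and 1383.3.

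Kcnj10 itself, which glial cells also use to take up potassium, was higher in brain. It read 578 in brain and 233.1 in kidney, 4.44-fold after centring, and was above the floor in both tissues. Kcnj3 and Kcnj9 code for channels opened by G proteins, which slow neuronal firing. Kcnj9 read 496.3 in brain against 1.4 in kidney (at least 4.08-fold), with 2 more probe sets above the floor at 325.3 against 1.5 and 127.2 against 2.3, and Kcnj3 471.5 against 7.3 (at least 3.88-fold). The inward rectifier genes Kcnj6 (115 against 15.2) and Kcnj4 (159.1 against 5.7) were within 2-fold with the floor. Kcnj5, which like Kcnj3 and Kcnj9 codes for a G protein-gated subunit, read 33.9 in brain and 63.6 in kidney. It was a kidney call after centring (at least 2.22-fold) that lay under the floor on the scale of 430A.

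Kcnj11, the pore of ATP-sensitive potassium channels, was bright in both tissues, at 997 and 793.5. Its log2 ratio was -1.76 after centring, -0.16 on the scale of 430A and 0.33 as deposited, so that its direction turned with the scaling. A second Kcnj11 probe set was under the floor at 77.2 and 5. Kcnj8, the vascular pore of the same channel type, read 25.5 in brain and 179.2 in kidney, just under the floor of 186.4, and the only Kcnj2 probe set read 0.8 and 1.1. Kcnj12 and Kcnj14 were under the floor as well.

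**Figure D3:**
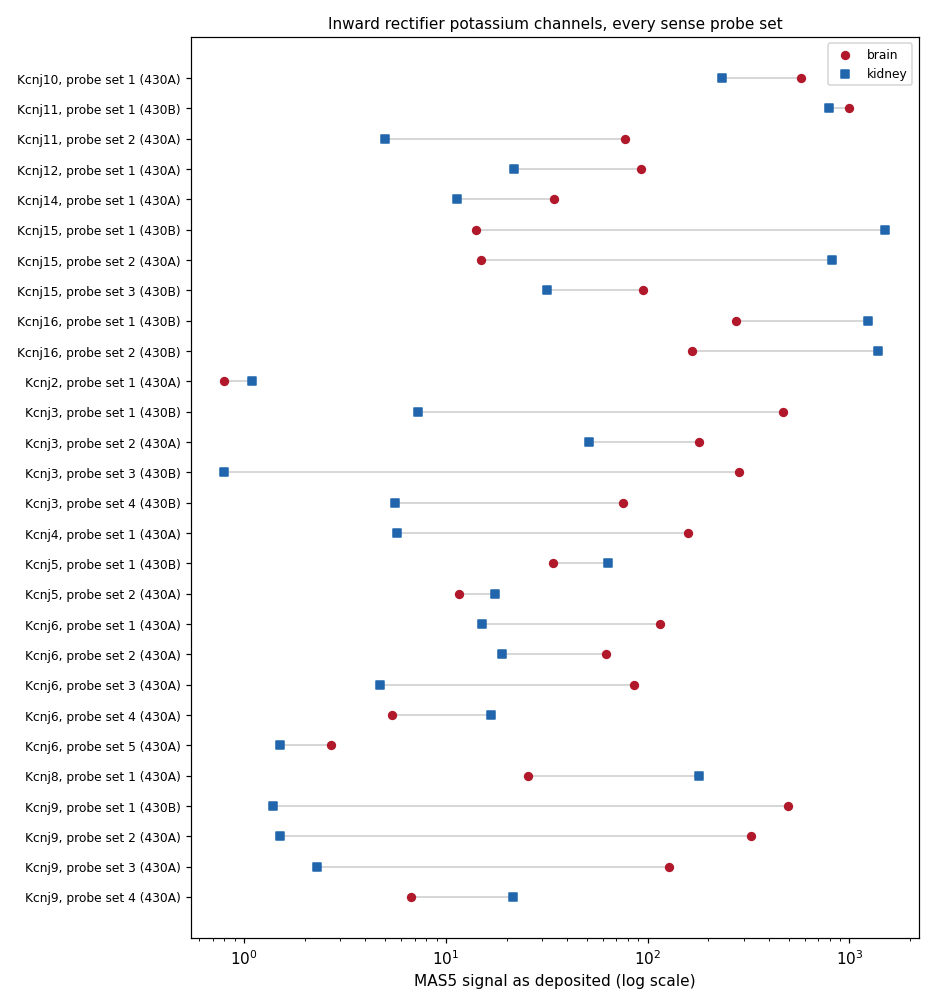
Deposited signals (log axis) of all 28 sense probe sets of the inward rectifier genes, brain as circles and kidney as squares joined by a line, with the brain array in brackets. Kidney lies right of brain for Kcnj16 and for the Kcnj15 probe sets labelled 1 and 2, and brain lies right of kidney for Kcnj3 and for the Kcnj9 probe sets labelled 1, 2 and 3.

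Sodium channel alpha subunits form the pore that starts the action potential. Of 8 genes 5 were above the floor, 4 of them higher in brain and none in kidney. Scn8a, found at the initial segment and nodes of axons, read 1156.8 in brain against 12.7 in kidney (at least 9.52-fold), and 3 more probe sets above the floor read 796.7 against 35.4, 498.9 against 2.7 and 326.4 against 13. Scn2a, a main alpha subunit of excitatory neurons, read 867.1 against 8.4 (at least 8.34-fold), with other probe sets at 2742.3 against 0.8, 431.4 against 0.3 and 149.8 against 8.7. Scn1a, the alpha subunit on which many inhibitory neurons rely, read 341.5 against 16.5 (at least 3.28-fold), and Scn3a, best known from the developing brain, 377.5 against 0.8 (at least 3.11-fold). On each of the 4 Scn2a probe sets the brain signal was above the floor and the kidney signal under it.

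Scn7a, a channel gene that is gated by sodium level, read 125.2 in brain and 48.1 in kidney on 430B (log2 ratio -0.70 after centring, 0.04 on the scale of 430A). Its other probe sets read 99 against 55 and 2.1 against 19. The sensory neuron genes Scn10a (11.8 and 2.1) and Scn11a (38.6 and 29.9) were under the floor in both tissues, as was Scn9a.

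Of the beta subunits, which anchor the pore and tune its gating, Scn2b read 3214 in brain and 89.4 in kidney, 8.48-fold after centring and 25.6-fold on the scale of 430A. Its other probe sets read 276.3 against 21.2 and 187.6 against 30.3. Scn3b read 472.9 against 8.3 (at least 4.55-fold). Scn4b, which shapes a brief current as the channel reopens, was bright in both tissues at 622.7 and 221.9. It turned from a log2 ratio of -0.60 after centring to 1.0 on the scale of 430A, where it was the 1 gene that joined the brain calls.

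**Figure D4:**
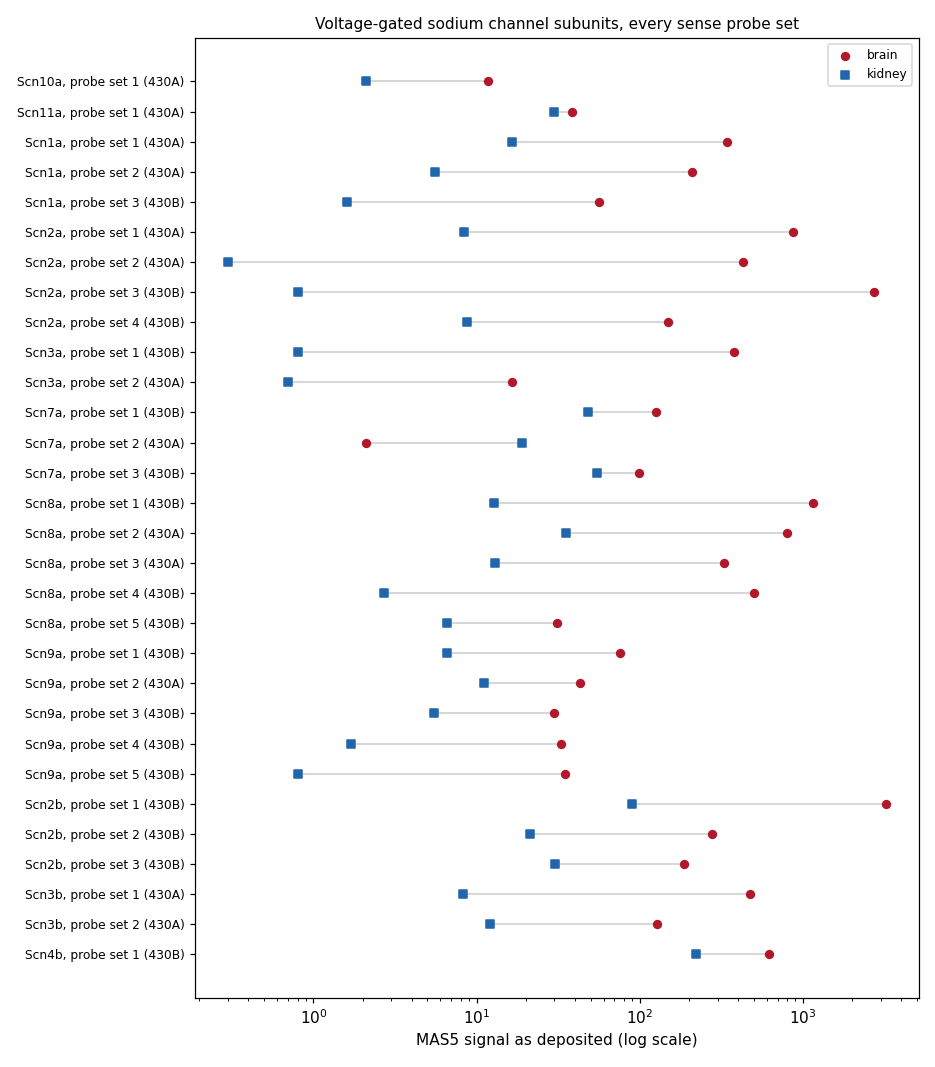
Deposited signals (log axis) of all 30 sense probe sets of sodium channel alpha and beta subunit genes, brain as circles and kidney as squares, with the brain array in brackets. Brain lies to the right of kidney on every probe set of Scn1a, Scn2a, Scn3a, Scn8a, Scn2b, Scn3b and Scn4b, and to the left on the 430A probe set of Scn7a.

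Hcn2, a pacemaker channel gene of brain and heart, read 257.1 in brain against 43.3 in kidney (at least 2.47-fold), and Hcn3 was under the floor at 51 and 8.4.

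Among the calcium channel pores, Cacna1, 5 of the 8 genes above the floor were brain calls and none was a kidney call, and the ninth gene was under it. Cacna1a, Cacna1b and Cacna1e, whose channels trigger transmitter release, were among the 5. Cacna1b, the N-type pore, read 956.5 in brain against 17.2 in kidney (at least 7.87-fold), with further probe sets at 710 against 7.5 and 599.9 against 2.9. Its probe set on 430A, at 11.9 against 4.2, was under the floor. Cacna1e, the R-type pore, read 754.4 against 3.5 (at least 6.21-fold), and Cacna1a, the P/Q-type pore, 666.8 against 23.4 (at least 5.49-fold). The 430A probe set of Cacna1e, at 63 against 15.5, was under the floor. Another Cacna1a probe set read 205 against 45.7 (log2 ratio 0.98), just under 2-fold. Those of Cacna1a at 105.3 against 9.5 and 78.9 against 14.2 were under the floor. The T-type pore gene Cacna1g read 295.9 against 75 (at least 2.85-fold). Of the L-type genes, Cacna1c, also the pore of heart and smooth muscle, read 298.4 against 15.9 (at least 2.46-fold) and Cacna1d 144.4 against 95.5 (log2 ratio 0.47 with the floor). Cacna1f (123.8 against 38.5) and Cacna1h (107.4 against 31.5) were within 2-fold with the floor, and Cacna1s, the skeletal muscle pore, was under the floor at 4.1 and 12.3.

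All 3 beta subunit genes, which carry the pore to the membrane, were higher in brain. Cacnb4 read 1164.4 in brain and 41.2 in kidney (6.66-fold), and 527.9 against 41.7 on 430A. Cacnb2 read 741.2 against 17.3 (at least 6.10-fold), and Cacnb1 535.5 against 4 (at least 4.41-fold). Another Cacnb1 probe set read 235.6 against 37.3 (at least 2.27-fold). The remaining Cacnb4 probe set, at 115 against 1.8, was within 2-fold with the floor. Under the floor were those of Cacnb2 at 101.5 against 1.6 and of Cacnb1 at 23.4 against 4.4 and 3.7 against 9.2.

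Of the Cacna2d genes, whose extracellular subunits include the binding sites of gabapentin, 3 of 4 were higher in brain. Cacna2d3 read 537.4 against 25.7 (at least 5.17-fold), and Cacna2d2 417.5 against 61.9 (at least 4.01-fold). The other Cacna2d2 probe sets, at 4.4 against 11.9 and 7.5 against 6.1, were under the floor, with the higher percentile in kidney. Cacna2d1 read 1269.2 against 112.3, 2.66-fold after centring and 8.06-fold on the scale of 430A. Its 5 probe sets pointed both ways, with 1 at 31.9 in brain and 50.5 in kidney (log2 ratio -0.82 after centring). Cacna2d4 stayed within 2-fold at 133.2 against 26.3.

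Of 8 Cacng genes, 5 were above the floor and each of them was higher in brain. Most of these code for subunits that carry AMPA receptors to the synapse. Cacng2 read 956.5 in brain against 26.8 in kidney (at least 7.87-fold), Cacng3 354.9 against 15.9 (at least 3.41-fold) and Cacng4 756.8 against 52.5 (3.40-fold after centring and 6.23-fold on the scale of 430A). The others were Cacng5 (294.5 against 2.8, at least 2.83-fold) and Cacng7 (555.9 against 52.1, 2.52-fold after centring and 4.58-fold on the scale of 430A). The 430A probe sets of Cacng4 (38.9 against 5.4) and Cacng7 (57.4 against 28.6) were under the floor. Cacng1, the subunit of the skeletal muscle channel, was under the floor at 17.7 and 14.7, as were Cacng6 and Cacng8.

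Probe sets of the same gene gave the only repeat readings of a gene within a tissue. Of 118 genes 70 had more than 1 probe set, and 41 had at least 2 above the floor. In 32 of the 41 all of these pointed to brain and in 3 to kidney (Kcnj15, Kcnj16 and Scn7a). On the scale of 430A only those of Kcnj16 all did so, since 1 Kcnj15 probe set was under the floor and those of Scn7a lay between 0 and 0.043 on the log2 scale. In 6 they pointed both ways, and in 5 of those, Cacna2d1, Kcnd3, Kcnf1, Kcnma1 and Kcns3, they were 2-fold or more apart. In each of those 5 genes a probe set on 430B gave the reading towards kidney, and on the scale of 430A none of their readings was below 0. The size of the ratio varied widely between probe sets of a gene. The log2 ratios of Scn2a ran from 0.30 to 4.50 and those of Kcna1 from 0.32 to 4.51. With kidney under the floor, such a ratio is the scaled brain signal over the floor and so depends on how bright the probe set is. Where only 1 tissue passed the floor, the direction of the ratio is set by that tissue. The counts of agreeing probe sets are therefore no separate check of direction, and no share over all genes is given for them.

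The antisense comparison asked how much signal running opposite to these genes each tissue held. Only 9 channel genes had a reverse probe set, 2 on U74A and 7 on U74B. Signals were compared as deposited, with the higher 75th percentile of a pair as the floor (63.5 on U74A and 98.5 on U74B). Just 1 of the 9 was above the floor, against 30.1% of all 5652 reverse probe sets. That probe set stayed under 2-fold with the floor. The others, with both signals raised to the floor, could not be called for either tissue. Brain calls made up 19.9% and kidney calls 4.67% of the 1007 genes with a reverse signal that passed. With 1 channel gene among these, no share of calls can be set against those values. A reverse signal pairs with RNA of the opposite strand over the probed stretch, and these files do not show how long that RNA is.

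Scn1a gave the single reading above the floor. Its reverse probe set read 112.2 in brain against 4 in kidney, percentiles 86.7 and 16 of the reverse probe sets, and was at least 1.77-fold higher in brain. It is also the only 1 of the 9 whose name carries a suffix mark (_r_at), which Affymetrix gives to sets that did not meet all its rules for probe choice. The sense transcript of Scn1a was higher in brain too, as given above.

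The 8 other reverse probe sets stayed under the floor in both tissues. For Kcnip4 it was 88.5 in brain against 23.1 in kidney, close to the floor in brain. For Cacna1d it was 29.6 in brain and 87.7 in kidney, where the sense signal of the same gene was 144.4 in brain and 95.5 in kidney. Cacna2d1 read 84 and 60.2, Kcnj9 55.3 and 50.5, and Kcnab2 40.7 and 20.4. Cacnb4 (17 and 23.1), Cacng5 (18.1 and 20.8) and Kcnip1 (12.7 and 15) were dim in both tissues. In brain the 9 reverse probe sets had percentiles from 26.2 to 86.7 with a median of 60.6, and in kidney from 16 to 72.8 with a median of 34.0.

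On the sense arrays the same 9 genes were bright in brain, at percentiles from 59.7 to 97.5, and 8 of them were called higher in brain, all but Cacna1d. Sense and reverse signals come from different probes and arrays, so their sizes were not set against each other. Of the 8 genes with a brain call, the deposited reverse signal was higher in brain for 5 (Scn1a, Kcnip4, Cacna2d1, Kcnj9 and Kcnab2) and in kidney for 3 (Cacnb4, Cacng5 and Kcnip1). By percentile, Cacng5 (34.2 in brain and 31.4 in kidney) and Kcnip1 (26.2 and 23.2) stood higher in brain instead. Cacnb4 (32.7 and 34.0) stayed higher in kidney. Of all 8, only the signal of Scn1a was above the floor.

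**Figure D5:**
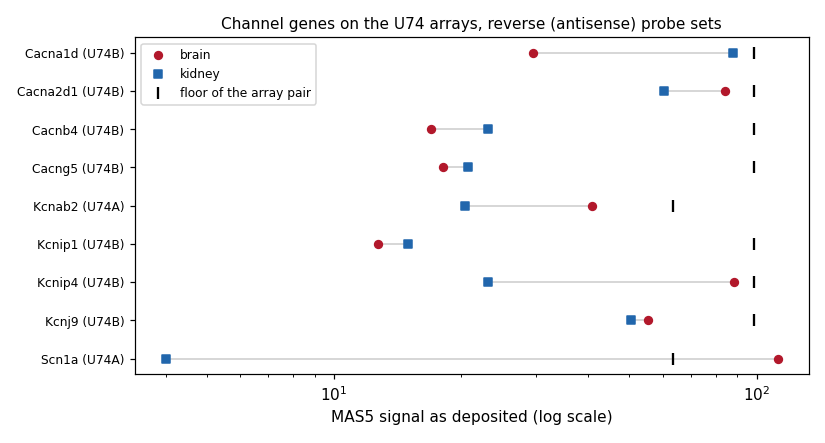
Deposited signals (log axis) of the 9 reverse probe sets of channel genes on U74A and U74B, brain as circles, kidney as squares and the floor of the array pair as a black tick. The brain signal of Scn1a, at 112.2, is the only one right of its tick.

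A natural antisense RNA of the family was also read by sense probe sets. Kcnmb4os2, annotated opposite Kcnmb4, read 231.6 in brain and 3.4 in kidney, a log2 ratio of at least 0.93 and so just under the 2-fold rule. Kcnmb4os1 was under the floor, at 46.4 and 21.8. Kcnmb4 itself, as given above, was at least 5.89-fold higher in brain.

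Proteins that bind, cluster or target these channels were followed as a separate list of 27 genes. Of 25 above the floor, 18 were higher in brain and 1, Akap9 (622.4 and 338.2), in kidney, or 21 and 0 on the scale of 430A. The shares of all genes were those given above, 17.8% and 27% after centring and 27.2% and 15.8% on the scale of 430A. They included Ank2, an ankyrin (4663.7 in brain and 93.4 in kidney), Fgf13 (1086.9 and 88) and Fgf14 (890.3 and 0.1), which bind sodium channels, and Dpp10, a partner of the Kcnd channels (583.9 and 12.2). Other cation and chloride channels were followed in the same way, and their counts lay near the shares of all genes after centring. Of 27 above the floor from 39 measured, 6 were higher in brain and 8 in kidney, or 9 and 5 on the scale of 430A, with a median log2 ratio of -0.10. Among them the acid-sensing channel gene Asic1 (1199.5 and 12) and the sodium leak channel gene Nalcn (1163.1 and 24.5) were brain genes. The epithelial sodium channel gene Scnn1g (8.8 and 457.9), the magnesium channel gene Trpm7 (133.3 and 925.4) and the endosomal chloride exchanger gene Clcn5 (434.7 and 1805.5) were kidney genes.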

How the data were processed

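The members and the gene lists were chosen with earlier results of these data known. Per the submitters' processing notes the authors made the values with MAS5. Each deposited value is a linear intensity per probe set. Reverse probe sets were selected by Affymetrix's mask, per the labels. No detection calls were used. For the arrays' scaling target, the sources used here give no value. GEO's platform annotation named the genes, and symbols were brought up to date by gene ID with RefSeq GRCm38.p6.

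Each brain array (430A and 430B) was set against kidney, probe set by probe set, and centred on the median log2 ratio of probe sets above the median of both (-0.84 and 2.08 removed). The 100 probe sets on both brain arrays were used from 430A. The probe set of highest percentile, averaged over tissues, stood for a gene. The rule named, in each group, up to 4 genes above the floor towards each tissue, genes with opposite probe sets, up to 2 below the floor, and all reverse members; further members and the genes named from the other lists were chosen after their values were seen. Steps used Python 3.11.15 with pandas 2.3.3 and numpy 2.4.6, and were tested on simulated data. The number of arrays limits the precision.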

Additional observations from a re-analysis of the deposited data

How the results depend on the processing

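The sense counts (53 channel genes higher in brain, 7 in kidney, median log2 ratio 1.42) depended on the floor and on the scaling. With the floor at the 75th percentile they were 29 and 4 of 59 above it, with a median of 0.98. With the 430A floor used for 430B they were 22 and 4 of 52, with 0.63. With no floor, on log2 of signal plus 1, they were 85 and 12 of 118, with 2.38. For all genes the counts were, in that order, 1083 and 2517 of 8829, 1446 and 2228 of 9146, and 5874 and 4752 of 18193. The kidney count was 2 of 83 with 430B on the 430A scale and 3 of 84 as deposited. For all genes it was 1965 of 12458 and 3255 of 12495. With genes read on 430A only, an alternative chosen after seeing the data, the counts were 29 and 1 of 50. For all genes they were 1568 and 1658 of 8160. Quantile normalization (53, 5, 1.54), the median over probe sets of a gene (50, 5, 1.25) and leaving out suffix-marked probe sets (49, 7, 1.5) stayed within 1.5 times for both counts. In these settings 90, 86 and 79 channel genes were above the floor. For all genes the counts were 2599 and 3183 of 13516, 2108 and 2997 of 13039, and 2139 and 2847 of 11379. The direction of a called gene turned for Kcnd3 (0.028 on the 430A scale, 0.52 as deposited), Kcnj11 (0.33 as deposited) and Kcnma1 (0.058 with the median over its probe sets, 2.17 on 430A only).

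For antisense, the reverse probe set above the floor went from 1 to 0 with the floor at the 90th percentile and to 0 without suffix-marked probe sets, where no median can be given. Without a floor, the counts were 2 for brain and 1 for kidney of 9, and the median was 0.13. For all genes they were 780 and 564 of 2915. The cause of these moves was not tested beyond what each setting changes by construction. No paired analysis was possible because each group holds 1 array and no test was made. Dim signals are limited by background, which these files do not give.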
